A study of Homo sapiens with 21 samples.

Results

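The pluripotency factors examined here are 10 genes, *POU5F1*, *NANOG*, *SOX2*, *LIN28A*, *LIN28B*, *DPPA4*, *ZFP42*, *PRDM14*, *TERF1* and *L1TD1*, followed through the differentiation of human induced pluripotent stem cells (iPSCs) into cardiomyocytes (CMs). Their rows were taken from the tables by gene symbol, with no measured value in the rule. All 10 genes had at least 1 listed transcript, 28 transcripts in all, out of 21537 listed transcripts of 11851 genes in the series. A change between stages could be computed for 20 distinct transcripts of 9 genes, and each was lower at the later stage, where 19.0% to 35.5% of all transcripts were lower. These are 37 values over 6 comparisons that share libraries, so a transcript can enter several times, *DPPA4-201* in all 6.

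Pluripotent cells are held in their undifferentiated state by a small set of transcription factors that bind one another's genes as well as their own. OCT4 (encoded by *POU5F1*) and SOX2 bind neighboring sites on DNA and, with NANOG, form the core of this network, and a wider group of chromatin and RNA-binding proteins is expressed with them. When cells leave pluripotency the network is shut down gene by gene, and some of its members, *SOX2* and the *LIN28* genes among them, also have roles in later lineages.

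RNA was measured in PGP1, which is an established line of human iPSCs. Wild-type cells were collected at 5 stages and 3 libraries were made for each: as iPSCs, as mesoderm (abbreviated M), as cardiac mesoderm (abbreviated CMes), as progenitors of the heart (CP) and as CMs. CMs were also made from 2 *UBE2B-/-* lines, with 3 libraries from each, in which the ubiquitin-conjugating enzyme that places ubiquitin on histone H2B was disrupted with CRISPR-Cas9. Each mutant line was grown from picked colonies of the same PGP1 background, so the lines stand for 2 editing events. Differentiation used a GSK3 inhibitor (CHIR99021) and then a WNT inhibitor (IWP4), and CMs were selected with lactate after beating began. The 3 replicates of a stage were separate differentiations, begun at different times.

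Sequence upstream of some members is shown first, because OCT4 and SOX2 are themselves members and are known to read short sites on DNA. The RefSeq promoter table of GRCh38.p14 had 7 promoters of 6 members and none for the other 4. The 250 bases before the start site were searched on both strands for TTTGCAT, the core of the octamer that OCT4 binds, and for CATTGT, a SOX site. TTTGCAT was found in 3.94% and CATTGT in 9.29% of all 35116 promoters in the table. The stretches of *NANOG* and *SOX2* are printed because they hold a TTTGCAT match and that of *DPPA4* because its main transcript is the only member transcript in all 4 stage tables. Each runs 5′ to 3′ toward the start site with matches in capitals. *NANOG* lies on the plus strand at chr12:7789152-7789401, *SOX2* on the plus strand at chr3:181711675-181711924 and *DPPA4* on the minus strand at chr3:109337547-109337796.
NANOG: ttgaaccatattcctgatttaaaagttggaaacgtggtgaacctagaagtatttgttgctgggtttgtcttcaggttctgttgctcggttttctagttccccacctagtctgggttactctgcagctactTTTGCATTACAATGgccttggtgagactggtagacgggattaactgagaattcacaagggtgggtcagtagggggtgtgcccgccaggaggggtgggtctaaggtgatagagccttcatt
SOX2: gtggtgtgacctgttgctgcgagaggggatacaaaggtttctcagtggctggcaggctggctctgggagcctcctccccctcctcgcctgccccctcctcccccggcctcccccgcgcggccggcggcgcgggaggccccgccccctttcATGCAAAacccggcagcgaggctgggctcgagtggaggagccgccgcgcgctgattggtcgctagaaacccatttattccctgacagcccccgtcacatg
DPPA4: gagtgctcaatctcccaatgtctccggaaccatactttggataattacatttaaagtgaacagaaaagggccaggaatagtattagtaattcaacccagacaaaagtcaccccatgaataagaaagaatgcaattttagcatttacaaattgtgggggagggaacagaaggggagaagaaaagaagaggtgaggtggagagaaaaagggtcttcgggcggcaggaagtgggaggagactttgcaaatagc

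In *NANOG*, the TTTGCAT match began 120 bases before the start site. A CATTGT match on the opposite strand followed it with 1 base between them, the arrangement of a joint OCT4 and SOX2 site, which 2 of the 35116 promoters (0.0057%) held. In *SOX2*, TTTGCAT was present on the minus strand, its farther end 100 bases before the start site. The promoters of *DPPA4*, *L1TD1* and *ZFP42* held neither set of letters in this window. *LIN28B* had 2 promoters in the table, one holding a CATTGT match 140 bases before its start site and the other none. These matches are letters in a window and not evidence of binding.

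The deposited tables give no value for a single library. Each of the 4 stage tables pools the 6 libraries of neighboring stages and gives, for each transcript, the mean of the natural log of normalized estimated counts with 0.5 added. A level below is therefore the geometric mean over a pair of stages, in estimated counts, on the scale of the iPSC and M libraries. Tables that overlap share 1 stage, so doubling the difference of their means gives the difference between the outer stages: iPSC to CMes, M to CP and CMes to CM. These changes are given on the log2 scale, later minus earlier, with a standard error (SE) from the variance columns. A transcript was called lower or higher at 1.5-fold or more and more than 2 SE. Only transcripts that the authors' test passed at a q-value of 0.05 are in a table, so a call here is a description, and a missing transcript is not one that stayed level. Library depth is unknown from these files.

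The tables listed 9 member transcripts of 4 genes for iPSC and M, 13 of 5 genes for M and CMes, 19 of 8 genes for CMes and CP, and 17 of 8 genes for CP and CM. In the same order they listed 3315, 6541, 7519 and 12982 transcripts in all. The member counts are therefore not a measure of how many members changed at each transition relative to other genes. Of the 28 transcripts, 7 were in a single table, 13 in 2, 7 in 3, and 1, *DPPA4-201*, in all 4. GENCODE 44 on GRCh38 matched 26 of them, of which 17 are protein coding, 5 retain an intron, 3 have no defined coding sequence and 1 is a target of nonsense-mediated decay.

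**Figure D1:**
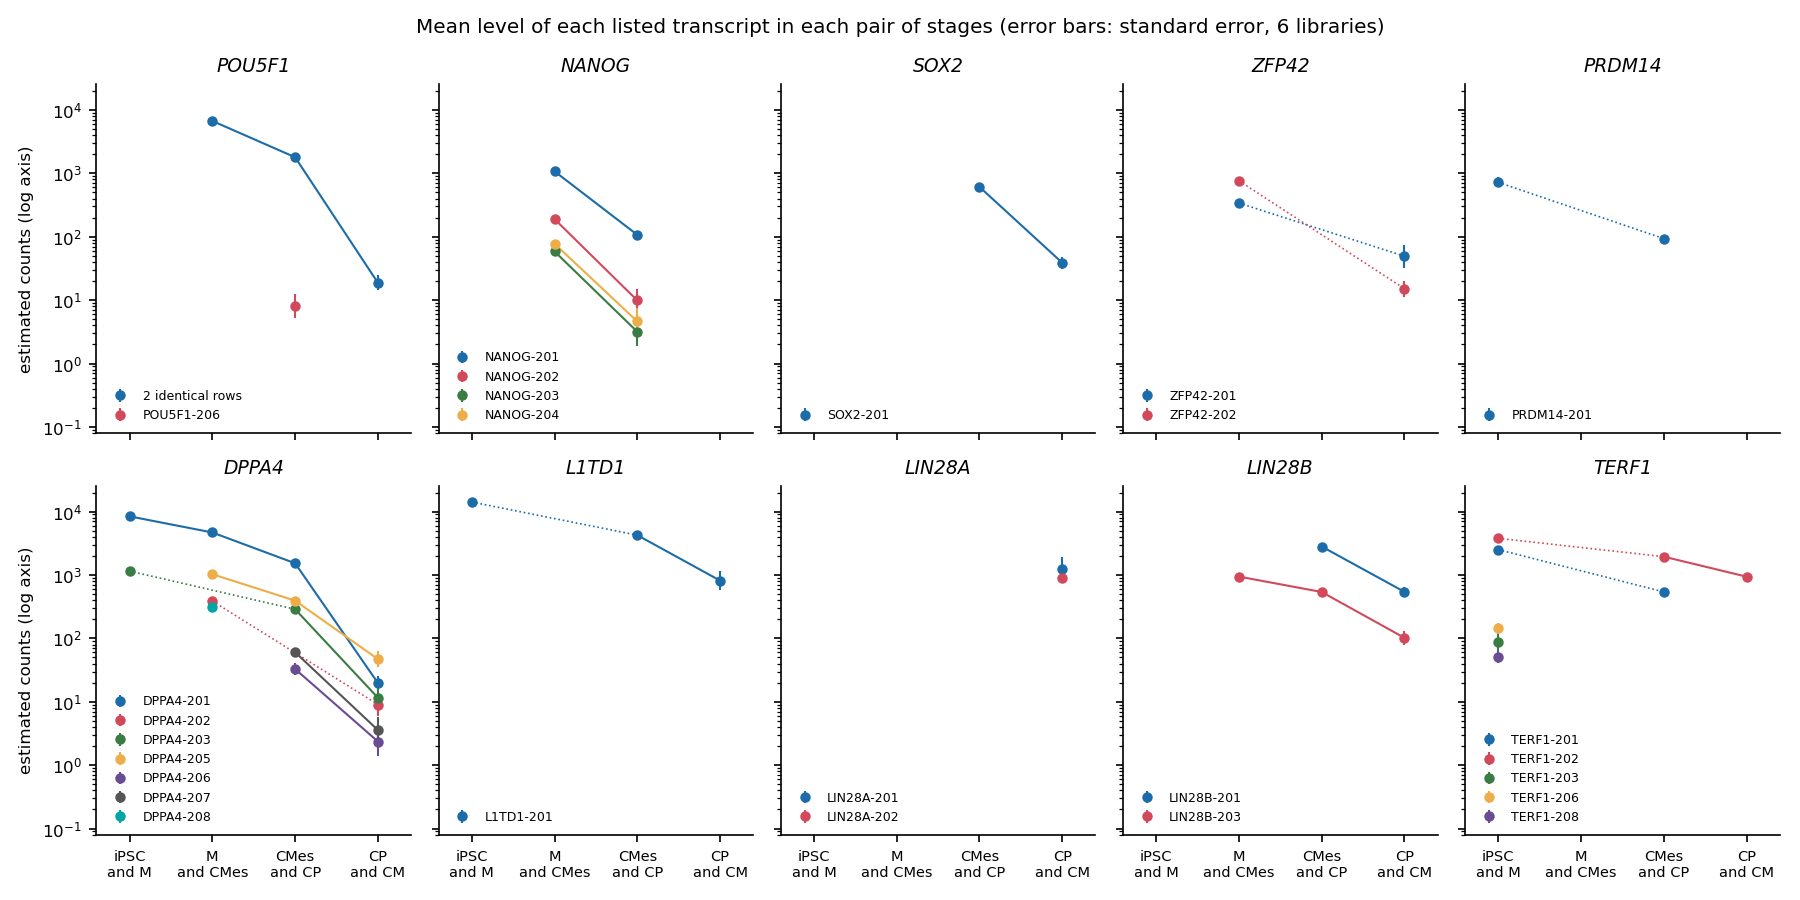
Mean level of each listed transcript in each pair of stages, in estimated counts on a log axis, with 1 panel per gene and SE bars over 6 libraries. Solid lines join neighboring pairs, dotted lines skip a pair in which the transcript is not listed, and every joined series goes down from left to right.

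*POU5F1* encodes OCT4, a POU-family factor without which the pluripotent state is lost. It is represented by ENST00000383524.4 and ENST00000437747.6, whose values are identical in every table that lists them and which are counted once. The pooled level was 6702 estimated counts over M and CMes, 1793 over CMes and CP and 18.7 over CP and CM. That is a decrease of 3.80 ± 0.27 (log2, SE) from M to CP and of 13.09 ± 0.61 from CMes to CM, the largest decrease among the members. Among the 3743 transcripts in both tables, none lay lower than *POU5F1* from CMes to CM.

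Counts that approach 0 make such a log2 value depend on the 0.5 added before the log, so its size is read less firmly than its direction. In bulk RNA, fewer cells of a type and less RNA per cell cannot be told apart. The identical *POU5F1* transcripts were not matched in the GENCODE 44 annotation used here. *POU5F1* lies in the major histocompatibility region, of which the genome build holds alternate haplotypes, and whether these rows are copies on such haplotypes is not known here. Rows with identical values within a gene occurred for 54 to 158 genes per table, so reads may be divided between such rows and the level of either may be a part of the gene's. A shorter coding transcript, *POU5F1-206* (chr6:31164351-31167170, minus strand, 3 exons), was listed only for CMes and CP, at 8.06 estimated counts.

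*NANOG* encodes the homeobox factor that stabilizes the pluripotent state. Its main transcript, *NANOG-201* (chr12:7789402-7799146, plus strand, 4 exons, 915 coding bases), had 1077 estimated counts over M and CMes and 107 over CMes and CP. The decrease from M to CP was 6.65 ± 0.33 on the log2 scale. The other 3 listed transcripts fell by 7.87 ± 1.02 (*NANOG-204*), 8.03 ± 1.09 (*NANOG-203*) and 8.39 ± 0.87 (*NANOG-202*), and the 4 values lie within 2 SE of one another. These 3 had 3.17 to 9.88 estimated counts over CMes and CP, so the size of their decreases also depends on the 0.5 added before the log.

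*NANOG-201* made up 76.7% of the listed *NANOG* level over M and CMes and 85.8% over CMes and CP. No *NANOG* transcript was listed for iPSC and M or for CP and CM. *NANOG* has processed copies elsewhere in the genome that share most of its sequence, so reads can be split among them. One of these, *NANOGP8*, was itself listed, at 186 estimated counts over M and CMes and 5.64 over CMes and CP, and is named here after its values were seen.

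*SOX2* encodes the HMG-box partner of OCT4, and is retained in neural progenitors when other lineages lose it. *SOX2-201* (chr3:181711925-181714436, plus strand, 1 exon) had 611 estimated counts over CMes and CP and 38.8 over CP and CM. From CMes to CM it fell by 7.92 ± 0.49 on the log2 scale. It was not listed at either earlier transition. Of the 3 core factors, *NANOG* was listed at the 2 middle transitions, *SOX2* at the last 2, and *POU5F1* at the last 3.

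*PRDM14* encodes a zinc-finger protein that represses genes of differentiation in pluripotent and germ cells. *PRDM14-201* (chr8:70051651-70071252, minus strand, 8 exons) had 722 estimated counts over iPSC and M and 93.3 over CMes and CP, a decrease of 2.94 ± 0.33 between the pairs. Its within-stage SD was 0.62 (log2) over iPSC and M, above the median of 0.22 for all transcripts in that table.

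*ZFP42* encodes REX1, a zinc-finger protein long used to mark undifferentiated cells. Its listed transcripts, *ZFP42-201* (chr4:187995771-188005046) and *ZFP42-202* (chr4:187995771-188005045), lie on the plus strand and carry 930 coding bases each. *ZFP42-202* went from 765 estimated counts over M and CMes to 15.1 over CP and CM, a decrease of 5.61 ± 0.43. *ZFP42-201* went from 340 to 49.3 estimated counts, a decrease of 2.77 ± 0.63.

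The ranking of the pooled *ZFP42* levels thus turned between these pairs of stages. A pooled level is a geometric mean, which counts near 0 in 1 stage pull down. Over CP and CM the SD over 6 libraries was 5.37 (log2) for *ZFP42-202* and 2.61 for *ZFP42-201*. Of that variance, 99.98% and 95.9% lay between the stages, so the turn does not give the ranking within a stage. The estimates of *ZFP42-201* and *ZFP42-202* also differed in precision. Over CP and CM the technical SD, which estimates the uncertainty of assigning reads to a transcript, was 1.38 (log2) for *ZFP42-201* and 0.09 for *ZFP42-202*. For *ZFP42-201* this exceeded the within-stage SD of 0.59.

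*DPPA4* encodes a DNA-binding protein that is bound to chromatin in pluripotent cells. *DPPA4-201* (chr3:109326144-109337546, minus strand, 7 exons) is the only member transcript that could be followed over the whole course. Its level was 8423 estimated counts over iPSC and M, 4684 over M and CMes, 1530 over CMes and CP and 19.7 over CP and CM. It fell by 1.69 ± 0.12 from iPSC to CMes, by 3.23 ± 0.14 from M to CP and by 12.48 ± 0.56 from CMes to CM. Each decrease was larger than the one before it, although the comparisons share libraries. Over CP and CM the SD of *DPPA4-201* over 6 libraries was 5.78 (log2) around a mean of 4.27. Of that variance, 99.9% lay between the stages. Such a spread puts the CM level at about the constant added before the log. The size of the last decrease therefore depends on that constant and cannot be set beside the earlier decreases on equal terms.

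The other *DPPA4* transcripts with a change fell too, including *DPPA4-203*, which keeps an intron. *DPPA4-203* went from 1152 estimated counts over iPSC and M to 288 over CMes and CP and 11.6 over CP and CM, and fell by 9.16 ± 0.79 from CMes to CM. *DPPA4-205* fell by 2.77 ± 0.22 from M to CP and by 6.10 ± 0.59 from CMes to CM, less than *DPPA4-201* at the later comparison by more than their joint SE. *DPPA4-207* and *DPPA4-206*, both at most 60.4 estimated counts over CMes and CP, fell by 7.80 ± 1.00 and 7.09 ± 1.19. They had 3.58 and 2.36 estimated counts over CP and CM, so the size of their decreases also depends on the constant added before the log. *DPPA4-202* fell by 5.35 ± 0.64 from the M and CMes pair to the CP and CM pair, and *DPPA4-208* was listed once, at 316 estimated counts over M and CMes.

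*DPPA4-201* made up 88.0% of the listed *DPPA4* level over iPSC and M, 73.0% over M and CMes and 66.4% over CMes and CP. The listed level covers 2, 4 and 5 transcripts in these pairs and 6 over CP and CM. The shares are therefore not comparable between pairs and do not show a shift between transcripts. Over CP and CM the transcript with the highest pooled level was *DPPA4-205*, at 47.1 estimated counts and 50.5% of the listed level. Its coding sequence is not defined in the annotation. The SD over 6 libraries was 5.78 (log2) for *DPPA4-201* and 2.33 for *DPPA4-205*, with 99.9% and 95.9% of the variance between the stages. This order of geometric means therefore does not give the order within a stage. For *DPPA4-205* the technical SD of 0.81 also exceeded the within-stage SD of 0.53.

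*L1TD1* encodes an RNA-binding protein derived from a LINE-1 element and found in pluripotent and germ cells. *L1TD1-201* (chr1:62194849-62212328, plus strand, 4 exons) had 14164 estimated counts over iPSC and M, the highest of the 4 members listed there, and 4250 over CMes and CP. It fell by 1.74 ± 0.16 between these pairs and by 4.76 ± 0.71 from CMes to CM, with 815 estimated counts over CP and CM. Its within-stage SD rose from 0.21 over iPSC and M to 1.18 over CP and CM, while its technical SD was at most 0.09.

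*LIN28A* and *LIN28B* encode RNA-binding proteins that block the maturation of let-7 microRNAs. *LIN28A* was listed only for CP and CM, so no direction can be given for it. *LIN28A-201* (chr1:26410817-26429719, plus strand, 5 exons) had 1233 estimated counts and *LIN28A-202* (chr1:26410817-26429728, plus strand, 4 exons) had 894. Both carry 627 coding bases, and their spread differed. The within-stage SD was 1.55 (log2) for *LIN28A-201* and 0.21 for *LIN28A-202*. The technical SD of *LIN28A-201*, 1.39, was of the size of its spread.

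*LIN28B* is made from separate start sites. *LIN28B-201* (chr6:104957107-105083332, plus strand, 4 exons) had 2813 estimated counts over CMes and CP and 542 over CP and CM. *LIN28B-203* (chr6:104940866-105080479, plus strand, 5 exons) had 944 over M and CMes, 540 over CMes and CP and 102 over CP and CM. From CMes to CM they fell by 4.75 ± 0.39 and 4.79 ± 0.52, values that differed by less than their SE. *LIN28B-203* fell by 1.61 ± 0.18 from M to CP, the smallest decrease of a member in that comparison.

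*TERF1* encodes a telomere-binding protein of the shelterin complex, which is needed in all dividing cells and is abundant in pluripotent ones. *TERF1-202* (chr8:73008864-73048123, plus strand, 10 exons) had 3793 estimated counts over iPSC and M, 1946 over CMes and CP and 941 over CP and CM. It fell by 0.96 ± 0.18 between the earlier of these pairs, a call lost at limits of 2-fold and 3 SE, and by 2.10 ± 0.18 from CMes to CM, the smallest decrease of a member in each comparison that holds it. *TERF1-201*, which has 9 exons and 1257 rather than 1317 coding bases, went from 2514 to 541 estimated counts between the iPSC and M pair and the CMes and CP pair, a decrease of 2.22 ± 0.17. The decrease of *TERF1-201* was larger than that of *TERF1-202* over the same pairs by more than their joint SE. *TERF1-203*, *TERF1-206* and *TERF1-208* were listed only for iPSC and M, at 51.1 to 144 estimated counts.

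The order of the members can be read only per length, for the highest listed transcript of a gene with its length in the annotation, which leaves out *POU5F1*. Over iPSC and M it was *L1TD1* at 3697 estimated counts per kb, *DPPA4* at 3021, *TERF1* at 1140 and *PRDM14* at 318, and each step exceeded 2 SE. Over M and CMes it was *DPPA4* at 1680, *LIN28B* at 358, *ZFP42* at 309 and *NANOG* at 208 estimated counts per kb, where the step between *LIN28B* and *ZFP42* did not exceed 2 SE. *LIN28B* stands there by *LIN28B-203*, since *LIN28B-201* is not listed, and by *LIN28B-201* in the later pairs, so its place is not comparable between them.

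Over CMes and CP *L1TD1* was highest at 1109 estimated counts per kb, and *TERF1* (584), *DPPA4* (549) and *LIN28B* (517) could not be ranked beyond 2 SE. Below them *SOX2* (243), *PRDM14* (41.1) and *NANOG* (20.7) were each separated by more than 2 SE. Over CP and CM *LIN28A* (357), *TERF1* (283), *L1TD1* (213) and *LIN28B* (99.5) lay above *DPPA4* (38.5), *ZFP42* (18.6) and *SOX2* (15.4). Only the step between *LIN28B* and *DPPA4* exceeded 2 SE there. *DPPA4* and *ZFP42* stand there by other transcripts than over M and CMes, *DPPA4-205* and *ZFP42-201*, chosen by pooled level and not within a stage.

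The median spread of the replicates of a stage was wider over all member values, minor transcripts included, than over the tables as a whole. The median within-stage SD of the distinct member values was 0.37 (log2) over iPSC and M, 0.32 over M and CMes, 0.41 over CMes and CP and 0.57 over CP and CM. Over all listed transcripts it was 0.22, 0.26, 0.22 and 0.34. The 2 sets were not matched by level. Over M and CMes the highest transcripts of *ZFP42*, *DPPA4*, *POU5F1* and *LIN28B* had lower values than the table's median, 0.08, 0.13, 0.14 and 0.25. That of *NANOG* was above it at 0.34. The technical SD exceeded the within-stage SD for 2 of 9 distinct member values over iPSC and M and 2 of 12 over M and CMes. It did so for 4 of 18 over CMes and CP and 5 of 16 over CP and CM. The share over all listed transcripts was not computed, so these counts are not a trait of the members. The comparison of spreads is a description and was not tested.

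Counted by comparison, the members were lower throughout, and none was called higher. From iPSC to CMes the 1 transcript in both tables, *DPPA4-201*, was lower, where 19.0% of the 1551 transcripts in both tables were lower. From M to CP 8 of 8 distinct transcripts of 4 genes were lower, against 27.9% of 2427. From CMes to CM 11 of 11 of 6 genes were lower, against 35.5% of 3743. The median change was -5.23 from M to CP and -7.09 from CMes to CM for the members, and 0.36 and -0.09 for all transcripts in both tables.

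**Figure D2:**
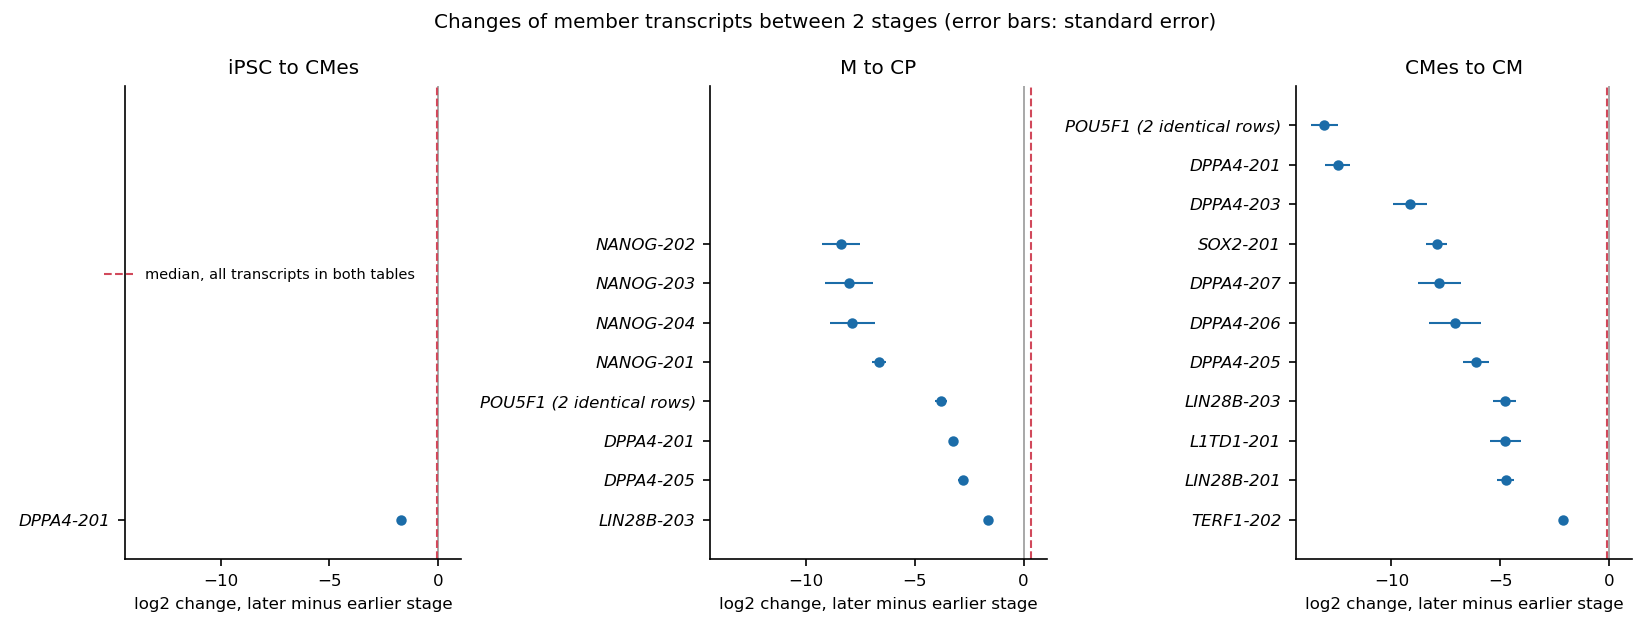
Log2 change of each member transcript between the outer stages of overlapping tables, later minus earlier, with SE bars. All points lie to the left of 0 and of the dashed line, the median of all transcripts in both tables. The largest decreases, of *POU5F1* and *DPPA4-201*, are from CMes to CM, and their size depends on the constant added before the log.

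The pairs that share no stage were read in the same way. Where a transcript is also listed in a pair between them, its value follows by arithmetic from the changes over the shorter steps. Its direction is then not separate support. Between the iPSC and M pair and the CMes and CP pair, 6 of 6 distinct member transcripts of 4 genes were lower, against 30.7% of 1280. Between the iPSC and M pair and the CP and CM pair, 4 of 4 of 3 genes were lower, against 32.9% of 1458. There *DPPA4-201* fell by 8.70 ± 0.39, *L1TD1-201* by 4.12 ± 0.49 and *TERF1-202* by 2.01 ± 0.17. Between the M and CMes pair and the CP and CM pair, 7 of 7 of 4 genes were lower, against 24.7% of 2782. All these comparisons draw on the same 15 wild-type libraries and share stages with one another.

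**Figure D3:**
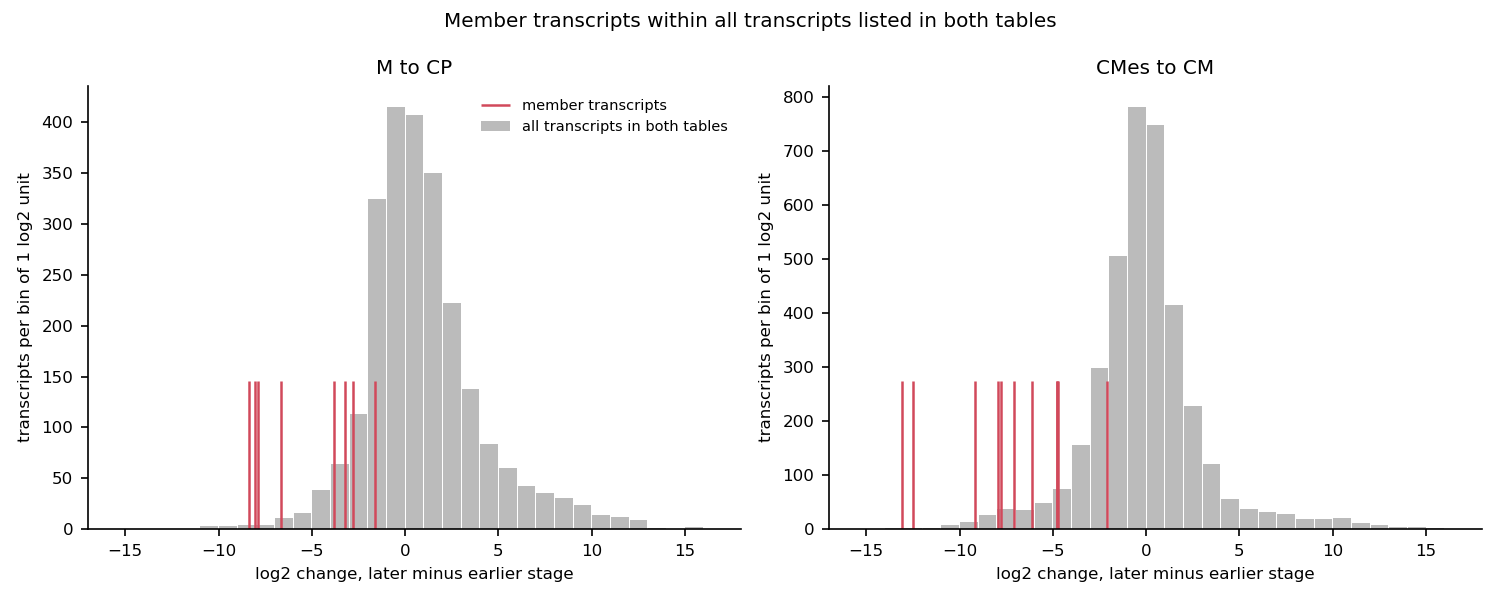
Number of transcripts listed in both tables by log2 change, in bins of 1 log2 unit, for M to CP and CMes to CM, with each member transcript as a vertical line whose height carries no value. The members lie in the lower part of both distributions, from -8.39 to -1.61 for M to CP and from -13.09 to -2.10 for CMes to CM.

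A list of 35 other genes of the pluripotency network was read in the same way. Of these, 26 had a value in at least 1 comparison and 24 were called lower in at least 1. Of their distinct transcripts, 6 of 13 were lower from iPSC to CMes, 14 of 21 from M to CP and 22 of 24 from CMes to CM, with medians of -0.56, -3.59 and -5.77, against 19.0%, 27.9% and 35.5% of all transcripts. None, 3 and 1 of them were higher, against 16.5%, 45.3% and 28.5%. Between pairs that share no stage, 9 of 10 were lower from iPSC and M to CP and CM, 11 of 15 from iPSC and M to CMes and CP, and 14 of 15 from M and CMes to CP and CM, against 32.9%, 30.7% and 24.7%.

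Among the largest decreases of the list from CMes to CM were those of *ZIC2* (10.57 ± 0.95), *VRTN* (10.23 ± 0.52), *ZSCAN10* (10.01 ± 1.00) and the DNA methyltransferase gene *DNMT3B* (8.67 ± 1.00), given as falls on the log2 scale. *POLR3G*, a subunit of RNA polymerase III, fell by 8.64 ± 1.61 from M to CP. The genes with a transcript called higher between outer stages were *OTX2*, *TFCP2L1* and *LEFTY2*, named after their values were seen, and each also had a lower call in another comparison. *OTX2* (ENST00000339475.9) was 0.84 ± 0.19 higher from M to CP and fell by 6.28 ± 0.26 from CMes to CM. Between pairs that share no stage, *KLF5* (ENST00000377687.6) was 1.47 ± 0.35 higher from iPSC and M to CMes and CP. *KLF5*, also named after its values were seen, had no lower call in any comparison.

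**Figure D4:**
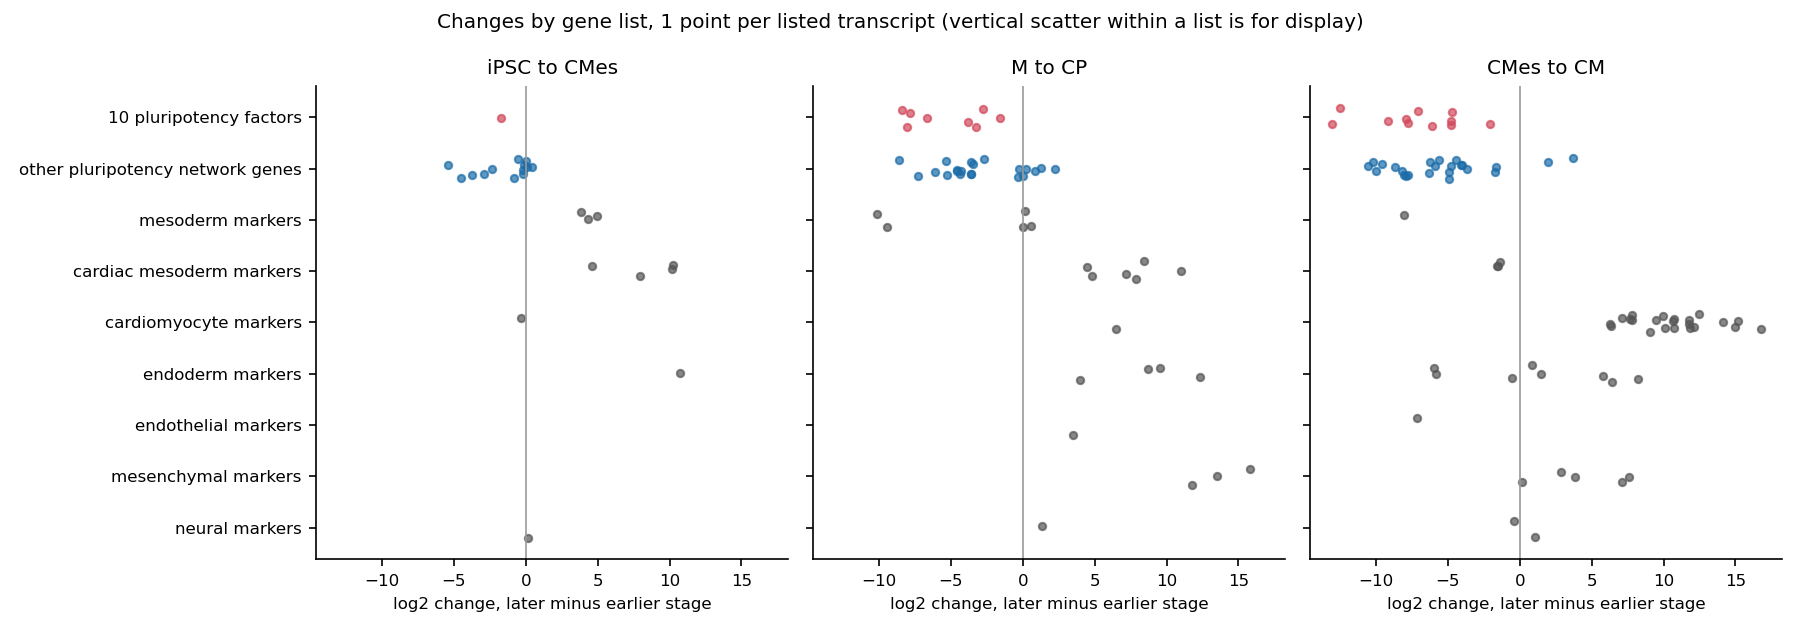
Log2 change of each listed transcript by gene list for the 3 comparisons of outer stages, later minus earlier. The pluripotency factors and most of the other network genes lie below 0, and the cardiomyocyte markers lie between 6.26 and 16.75 from CMes to CM.

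Stage markers were read beside the members to check the labels. All 22 distinct transcripts of cardiomyocyte markers, from 7 of 8 genes, were higher from CMes to CM, where 28.5% of all transcripts were higher. All 4 of cardiac mesoderm markers were higher from iPSC to CMes, against 16.5%, and 6 of 6 from M to CP, against 45.3%. Mesoderm markers were higher for 3 of 3 transcripts from iPSC to CMes and lower for 2 of 5 from M to CP, against 27.9%. All these mesoderm calls were of 1 gene, *TBXT*. The transcripts of *MESP1* and *EOMES* were called in neither direction from M to CP. From CMes to CM, 3 of 3 cardiac mesoderm transcripts were lower, against 35.5%, and the 1 mesoderm transcript, of *EOMES*, fell by 8.06 ± 0.73. The 1 cardiomyocyte transcript in the earlier comparisons, of *TTN*, was called in neither direction from iPSC to CMes and was 6.48 ± 0.68 higher from M to CP. Markers of other cell types moved over the same intervals as the members. From iPSC to CMes the 1 endoderm transcript listed, of *FOXA2*, was 10.70 ± 1.05 higher, the 1 neural transcript was called in neither direction, and no endothelial or mesenchymal marker was listed. From M to CP the endoderm markers were higher for 4 of 4 transcripts, the mesenchymal for 3 of 3, the endothelial for 1 of 1 and the neural for 1 of 1. From CMes to CM the endoderm markers were higher for 3 and lower for 2 of 8, the mesenchymal higher for 4 of 5, the endothelial lower for 1 of 1 and the neural higher for 1 of 2. Their part in the members' values was not tested.

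In the *UBE2B-/-* CMs no member could be compared with wild type. The table of the first line listed 3088 transcripts and that of the second 3134, and 0 of them belonged to any of the 10 genes. Of the 35 other network genes, the first table listed *KLF5* and *SFRP2* and the second *EPCAM*, *PODXL* and *SFRP2*. Both tables come from a fit over 9 CM libraries that shares the wild-type CMs. A gene is absent from them where its difference did not pass the authors' limit or it was not tested, and its absence does not show that mutant and wild type were alike. The members that could be followed had their lowest levels in the last pair they were listed in, and 7 of the 9 were listed in the pair of stages that includes wild-type CMs. A transcript of *UBE2B* itself was listed for the first line and none for the second.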

How the data were processed

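The data are poly-A RNA libraries, 15 of wild-type and 6 of *UBE2B-/-* cells. The authors trimmed reads, estimated transcript counts with kallisto on hg38, and ran sleuth. They deposited 6 tables of transcripts with a q-value up to 0.05. The deposited mean is a natural log of normalized counts plus 0.5, and the deposited variances are scores in squared natural-log units from the authors' fit. The columns with the authors' effects, their errors, p-values and q-values were not used. There are 0 columns of per-library values, so depth is unknown and precision is the SE of pooled means.

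Scale offsets between tables (0.07, 0.01 and -0.12, natural log) were set so that the shared stage had 1 mean, which held within 0.02 for 100% of the 1129, 1654 and 2446 transcripts used, those with a mean log above 5 in both tables, of 1551, 2427 and 3743 listed in both. SEs combined technical and fitted biological variance over 6 libraries, assume 1 variance for both stages of a table and let the shared stage cancel. Groups came from the sample labels, and no p-value was computed. The calculation was also run on simulated libraries, without technical variance and without selection by q-value. That run does not cover the selection of listed transcripts or the decreases to counts near 0. Python 3.11.15 with pandas 2.3.3 and numpy 2.4.6 was used. Coordinates are from GENCODE 44 on GRCh38 and promoters from RefSeq on GRCh38.p14.

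The members, the list of other network genes, the marker lists (mesoderm, cardiac mesoderm, cardiomyocyte, endoderm, endothelial, mesenchymal, neural) and the motifs were chosen with earlier results of these data known. Named genes were all members, with the highest listed transcript standing for a gene, and up to 6 other network genes with the largest change, of which 1 is not reported here. The comparisons of iPSC and M with CMes and CP, and of M and CMes with CP and CM, were added after the tables were seen. Alternatives were the offset, the variance, the limits of a call, a minimum of 10 estimated counts and the sum over listed transcripts.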

Additional observations from a re-analysis of the deposited data

How the results depend on the processing

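The number of member transcripts lower or higher in each of the 6 comparisons stayed within 1.5 times its value under every alternative run: the median difference or no offset as the scale between tables, residual variance only, limits of 2-fold and 3 SE, and a minimum of 10 estimated counts. The counts fell from 6 to 5 from iPSC and M to CMes and CP at 2-fold and 3 SE, by the call of *TERF1-202*. With at least 10 estimated counts they fell from 8 to 6 from M to CP, from 11 to 9 from CMes to CM and from 7 to 6 from M and CMes to CP and CM, since fewer transcripts enter. No member change turned its direction. Of the 37 member changes, 7 moved by more than their SE with the median difference as the scale and 3 with no offset. With the median scale, *POU5F1* fell by 4.16 rather than 3.80 from M to CP and *LIN28B-203* by 1.97 rather than 1.61. Summing the listed transcripts moved 12 of 25 gene levels beyond the within-stage SD, upward in each because a sum adds transcripts, and doubled *POU5F1* to 13404 estimated counts over M and CMes, where its identical rows add up. Leaving out each replicate in turn was not run because the tables hold pooled values. No paired analysis was possible because the columns carry no values per library. Low counts limit the decreases to the CM stage and those of the minor *NANOG* transcripts to CP, whose size depends on the 0.5 added before the log.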
